A study of Homo sapiens with 9 samples.

Results

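AADAC (arylacetamide deacetylase) and AADACP1, a pseudogene named after it that lies next to it on chromosome 3, were followed across 3 culture conditions of A549, an established human lung adenocarcinoma cell line. The array table held 1 probe set for each, so the pair made up 2 of 14884 named genes and 2 of 53617 probe sets. Both were taken up because of their levels in these samples and because gene and pseudogene appeared to move together, so their levels and differences are given as a description, with no test. All cells were grown for 5 days in 96-well plates in DMEM with 10% serum. Cells of the control condition adhered to a standard plate and received Milli-Q water as vehicle. The second condition kept the water and used a plate to which cells adhere poorly, and the third used that plate with FP001, named in the labels without further description, at 0.015% (w/v). There were 3 arrays per condition, and attachment replicate 1 was left out because its values followed no other array (highest rank correlation −0.00191), which left 2 attachment arrays and 3 of each low-attachment group. On the 8 arrays used, rank correlations lay between 0.961 and 0.985 and the array median intensity between 23.3 and 24.1. Nothing in the labels ties the replicates to separate cultures; p-values therefore cover only the spread among these samples, possibly technical, and the small number of arrays limits precision.

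AADAC encodes an esterase anchored in the membrane of the endoplasmic reticulum with its active site in the lumen. It is known as an abundant enzyme of liver and intestine, where it removes acetyl and other acyl groups from drugs such as phenacetin, flutamide and rifampicin and takes part in triglyceride turnover. A transcribed pseudogene such as AADACP1 makes RNA without being known to make the protein of its relative. In RNA from a whole culture, fewer cells expressing a gene and less RNA per cell cannot be told apart.

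AADAC was the 1 of the 2 members with an upstream window in the reference used, so its upstream bases are shown. No window of AADACP1 was available. SUCNR1, the receptor for succinate, is the nearest gene with a named probe set on the side of AADAC away from AADACP1. Its upstream bases are shown because its mean was lower with FP001, as that of AADAC was. Both are the 250 bases before the annotated start in RefSeq, build GRCh38.p14, plus strand, 5′ to 3′, chr3:151813866-151814115 for AADAC and chr3:151873393-151873642 for SUCNR1. Capitals mark AGATAA, a motif of GATA transcription factors.
AADAC: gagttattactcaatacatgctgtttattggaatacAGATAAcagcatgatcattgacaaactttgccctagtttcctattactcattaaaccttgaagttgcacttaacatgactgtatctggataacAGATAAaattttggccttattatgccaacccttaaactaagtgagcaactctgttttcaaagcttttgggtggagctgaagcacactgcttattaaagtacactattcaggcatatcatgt
SUCNR1: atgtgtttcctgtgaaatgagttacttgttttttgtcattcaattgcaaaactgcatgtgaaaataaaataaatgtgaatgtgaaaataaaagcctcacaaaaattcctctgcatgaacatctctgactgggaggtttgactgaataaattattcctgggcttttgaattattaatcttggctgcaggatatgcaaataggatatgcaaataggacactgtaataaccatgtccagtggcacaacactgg
The AADAC window held 2 matches to AGATAA, starting 214 and 121 bases before the start, and the SUCNR1 window 0, where 9.17% of 35116 windows of this length held at least 1 on either strand. Neither window held the FOXA motif TGTTTAC, which 2.98% of windows held on either strand. The HNF4 motif CAAAGTCCA was in neither and in 0.325% of windows. The TATA box motif TATAAA was in neither and in 10.7% of windows.

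AADAC was read at an intensity of 193.0 and 167.6 on attachment replicates 2 and 3. On low-attachment plates in normal medium it was 167.0, 151.3 and 163.9 on replicates 1 to 3, and with FP001 it was 104.2, 116.6 and 129.2. The FP001 arrays were thus the 3 lowest and the attachment arrays the 2 highest, and no array of a group overlapped another group, though the attachment and low-attachment arrays came within 0.0050 log2 units of each other. The group means, as mean log2 values turned back to intensity, were 179.8 on attachment plates (log2 7.49 ± 0.14, SD, n = 2), 160.6 on low-attachment plates (7.33 ± 0.08, n = 3) and 116.2 with FP001 (6.86 ± 0.15, n = 3). With FP001 AADAC stood at 72.4% of its level in normal medium on the same plates (log2 difference −0.47 ± 0.10, standard error) and at 64.6% of its level in attached cells (−0.63 ± 0.14). Between low-attachment and attachment plates in normal medium its log2 difference was −0.16 ± 0.11, and 49.3% of the genes tested differed by more in that comparison. Between FP001 and normal medium on low-attachment plates, 1.73% of genes differed by more than AADAC did. The pair was chosen on these values, so such shares are a description only.

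AADACP1 was read at 115.4 and 116.9 on attachment replicates 2 and 3. It was 137.8, 165.8 and 158.9 on low-attachment replicates 1 to 3 and 91.8, 96.5 and 104.9 with FP001. The order of groups therefore differed from that of AADAC: the pseudogene was highest on low-attachment plates in normal medium, lower in attached cells and lowest with FP001, again with no overlap between groups. Its group means were 116.1 on attachment plates (log2 6.86 ± 0.01, n = 2), 153.7 on low-attachment plates (7.26 ± 0.14, n = 3) and 97.6 with FP001 (6.61 ± 0.10, n = 3). In normal medium, low attachment stood at 132.3% of the attached cells (log2 difference 0.40 ± 0.08), and FP001 at 63.5% of normal medium on the same plates (−0.65 ± 0.10) and at 84.0% of the attached cells (−0.25 ± 0.06). Between FP001 and normal medium 0.522% of genes differed by more than AADACP1, again as a description of a pair chosen on these values.

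**Figure D1:**
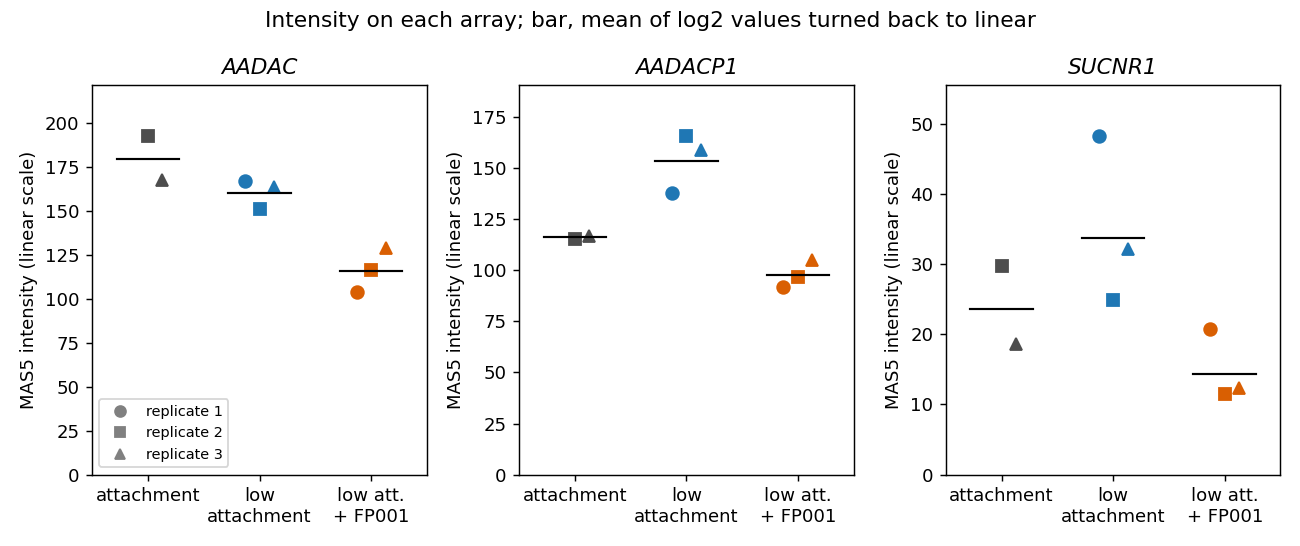
MAS5 intensity on a linear scale on each of the 8 arrays for AADAC, AADACP1 and the neighbouring gene SUCNR1, with symbols for replicate numbers and bars for group means of the log2 values. The FP001 arrays are the lowest for AADAC and AADACP1 and lie below the low-attachment arrays for SUCNR1, whereas the low-attachment arrays lie below the attachment arrays for AADAC (151.3 to 167.0 against 167.6 and 193.0) and above them for AADACP1 (137.8 to 165.8 against 115.4 and 116.9).

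Such separations were counted over the 10916 genes tested. Between low attachment and attachment, groups did not overlap in 23.4% of genes in the direction of AADAC (lower) and in 22.2% in that of AADACP1 (higher). With FP001 below normal medium on low-attachment plates and no overlap, AADAC and AADACP1 were among 9.01% of genes. FP001 lay below attachment without overlap in 26.2% of genes and below both other groups in 5.69%. The full order seen for AADAC (attachment, then low attachment, then FP001) was shared by 2.73% of genes and that seen for AADACP1 by 0.183%, or 20 genes. In the comparisons themselves, limma called 10.1% of genes between low attachment and attachment, 19.5% between FP001 and attachment, and 0.11% between FP001 and normal medium on low-attachment plates, at a Benjamini-Hochberg adjusted p under 0.05. Since the pair was chosen on these values, nothing further is read from where its members stand.

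Low-attachment arrays with and without FP001 that carried the same replicate number varied together across genes, so the FP001 difference was also taken within each number. For AADAC it was −0.68, −0.38 and −0.34 in log2 for replicates 1, 2 and 3, with a mean of −0.47 ± 0.19 (SD, n = 3). For AADACP1 it was −0.59, −0.78 and −0.60, with a mean of −0.65 ± 0.11. Both were lower with FP001 in 3 of 3 pairs, which any pairing of groups that do not overlap must give. The pair in which AADAC differed most was not the one in which AADACP1 did.

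The gene and its pseudogene did not keep a fixed ratio. A probe set's level cannot be set against another's, but the change of their log2 ratio between arrays can be read. The log2 ratio of AADAC to AADACP1 was 0.74 and 0.52 on the attachment arrays, 0.28, −0.13 and 0.05 on the low-attachment arrays and 0.18, 0.27 and 0.30 with FP001. Both low-attachment groups lay below the attachment arrays, and they overlapped each other. How often the ratios of other pairs separate in this way was not counted. Among single genes, 23.4% lay below attachment without overlap with low attachment and 26.2% with FP001. Relative to the attached cells the ratio stood at 67.5% on low-attachment plates in normal medium (change −0.57 ± 0.16, standard error) and at 76.9% with FP001 (−0.38 ± 0.12). Between FP001 and normal medium on low-attachment plates the change was 0.19 ± 0.12. The members were thus both lower with FP001, and between attached and low-attachment cells in normal medium their mean differences had opposite signs. The AADAC side of that was small: its −0.16 became −0.06 without attachment replicate 2 and −0.10 with quantile scaling. Within groups, the deviations of AADAC and AADACP1 from their group means had the same sign on 2 of 3 FP001 arrays, 1 of 3 low-attachment arrays and 0 of 2 attachment arrays.

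**Figure D2:**
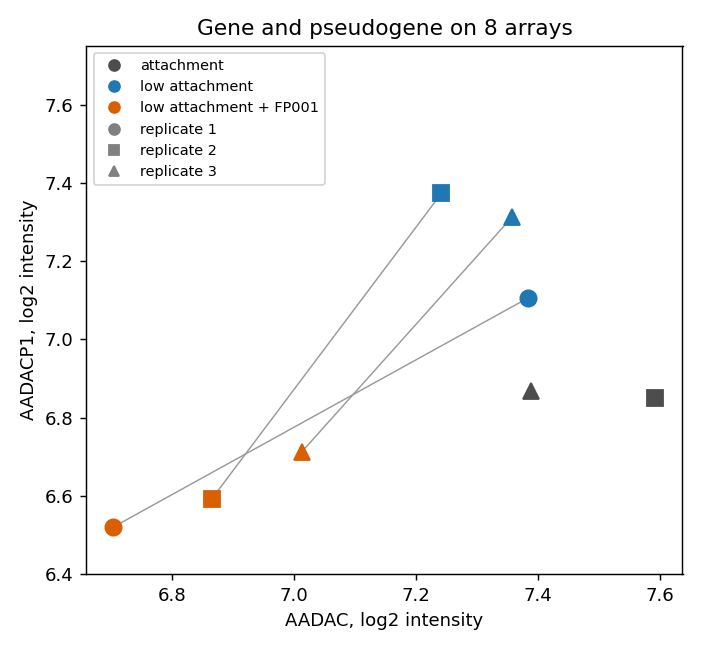
Log2 intensity of AADACP1 against that of AADAC on 8 arrays, with grey lines joining low-attachment arrays of the same replicate number without and with FP001. All 3 lines run down and to the left towards FP001, and the 2 attachment arrays lie to the right of the lines, at AADAC levels of the low-attachment arrays or above but with lower AADACP1.

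Over the 8 arrays Pearson's r between AADAC and AADACP1 was 0.627, a value that mixes differences between groups with those within them and is given as a description. Of the other 10915 genes, 1823 (16.7%) had a higher r to AADAC than its pseudogene had. Taken from the other side, AADAC ranked 484 among all genes by r to AADACP1. The genes most like AADAC were PMS2P9 (r = 0.990), a pseudogene named after the mismatch repair gene PMS2, the kinase gene MAP3K12 (0.984), QARS1 (0.981), which encodes glutaminyl-tRNA synthetase, and RBM5 (0.978), an RNA-binding splicing factor. They were followed by LINC01061 (0.971), ANKRD10 (0.971), the microRNA gene MIR27B (0.970) and LINC00665 (0.969). The genes that ran most nearly opposite to AADAC were DMRTA2 (−0.995), the keratin gene KRT18 (−0.982), CENPU (−0.981), which encodes a centromere protein, and SFN (−0.972). All 8 arrays enter each value, 164 genes had an r above 0.9, and such a ranking over so few arrays has little depth. With Spearman's rho in place of r, 0 of the 8 most similar genes stayed among the first 8, and with the root mean square difference of centred values 4 did.

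AADACP1 was set beside other pseudogenes measured on the same arrays, matched by symbol to the gene they are named after. There were 213 such pairs with a named probe set, and 110 in which both members passed the filter on dim probe sets. Over the 109 other pairs r ran from −0.872 to 0.947 with a median of 0.194 and quartiles of −0.230 and 0.611, and 25 of them were above the 0.627 of AADAC and AADACP1. The highest were CEP170 and CEP170P1 (0.947), OCLN and OCLNP1 (0.945) and NSF and NSFP1 (0.885). For 455 genes read by more than 1 probe set, r between the brightest 2 probe sets had a median of 0.543; 204 of these genes had a value above 0.627. The labels name a 3' IVT labelling kit, while the numeric probe set identifiers have the form used on whole-transcript arrays, so which part of either transcript each level reads is not known. Whether the AADACP1 and AADAC probe sets share bases is not given in the files, and signal passing from one transcript to the other was not tested.

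**Figure D3:**
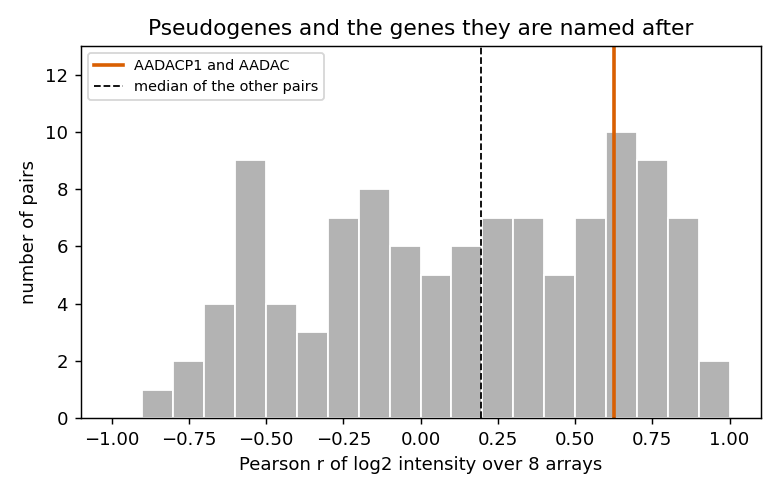
Number of gene and pseudogene pairs by Pearson's r of their log2 intensities over 8 arrays, for the 109 pairs other than AADAC and AADACP1. The solid line marks AADAC and AADACP1 at 0.627 and the dashed line the median of the others at 0.194, with 25 pairs to the right of the solid line.

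Neighbouring genes were chosen by their place on the chromosome alone, as the 10 nearest on each side of AADAC with a named probe set. On 1 side AADACP1 came first and then AADACL2, a relative of AADAC, and on the other SUCNR1. Leaving out AADACP1, 12 of the 19 neighbours could be tested. None passed between low attachment and attachment or between FP001 and normal medium in limma without a block (medians 0.01 and 0.03, against 0.01 and 0.01 over all genes), and 1, SELENOT, was higher with FP001 than in attached cells (log2 difference 0.41 ± 0.09, adjusted p = 0.0148; 0.32 with adjusted p = 0.105 without attachment replicate 3). Over all genes limma called 10.1%, 0.11% and 19.5% in these comparisons, in that order. MED12L, MBNL1 and ARHGEF26 differed between FP001 and normal medium by −0.03, −0.02 and 0.10. Between them and AADAC lay 11, 8 and 29 annotated genes, most of them without a named probe set and so not read. The immediate surroundings of AADAC were thus largely not measured.

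SUCNR1 was the tested neighbour whose mean differed most between FP001 and normal medium. It was read at 29.8 and 18.7 on attachment replicates 2 and 3, at 48.3, 24.8 and 32.2 on low-attachment plates and at 20.8, 11.6 and 12.4 with FP001. The FP001 arrays lay below all low-attachment arrays in normal medium, and all 3 were under the array median, so the level with FP001 was dim. The log2 difference was −1.23 ± 0.29, which missed the threshold in limma without a block (adjusted p = 0.157). It passed once the replicate number was a block (−1.23 ± 0.19, limma adjusted p = 0.0112), in a fit that called 1.3% of all genes. The block matched attachment arrays by number too, although these were not taken as paired, so the error behind this p-value rests partly on that matching. SUCNR1 was the 1 of 12 neighbours to fall in that fit. SUCNR1 reached the array median on 3 low-attachment arrays and 1 attachment array, so its FP001 difference is against a level in the dim range and its size is uncertain.

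**Figure D4:**
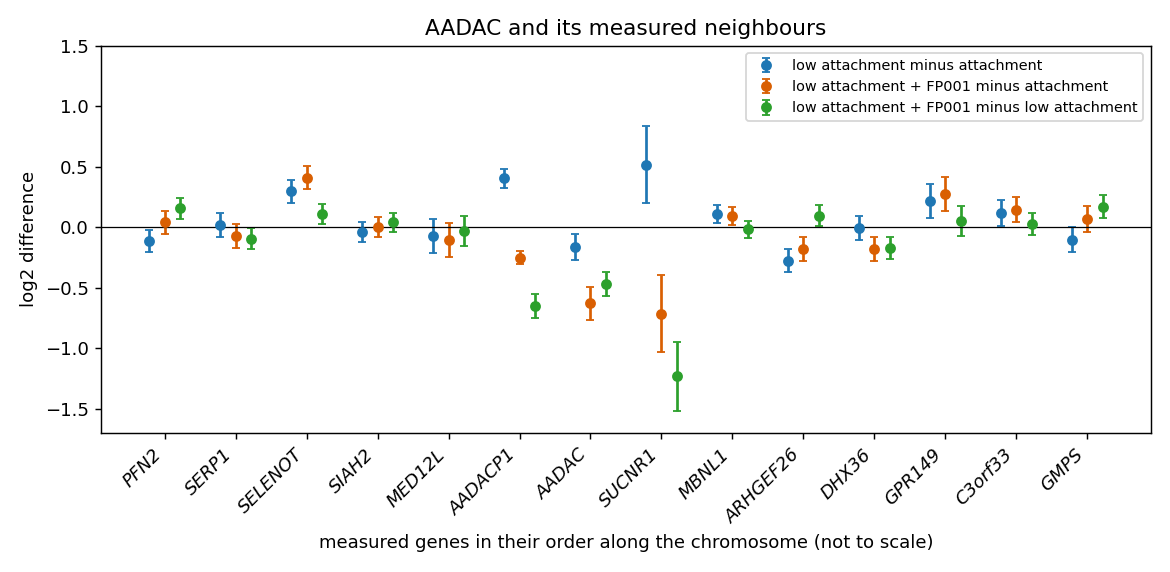
Log2 differences of AADAC, AADACP1 and 12 tested neighbours in their order along the chromosome, for the 3 comparisons. Bars are standard errors (from limma for the neighbours, from the group spreads for AADAC and AADACP1), and the FP001 minus low-attachment values (green) are −0.65, −0.47 and −1.23 for AADACP1, AADAC and SUCNR1 and between −0.17 and 0.17 for the other neighbours.

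Of the 4 relatives of AADAC, 2 were tested, and 0 passed in limma in any comparison. Among all genes 10.1% passed with low attachment, 19.5% with FP001 against attached cells and 0.11% between FP001 and normal medium. NCEH1, which hydrolyses neutral cholesteryl esters, had mean intensities of 356.6, 401.6 and 418.0 on attachment, low-attachment and FP001 arrays, and its FP001 difference against normal medium was 0.06 ± 0.10 (adjusted p = 0.857). AADACL3 had means of 29.3, 27.0 and 30.4 and an FP001 difference of 0.17 ± 0.11 (adjusted p = 0.569). AADACL2, between AADACP1 and the more distant neighbours, stayed between 7.04 and 9.82 on all 8 arrays and AADACL4 between 6.44 and 11.7, both below the median on every array and so not tested.

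The lists below hold genes of the processes and tissues that AADAC belongs to, markers of A549 and markers of other cell types. List genes without a named probe set could not be read, so nothing is known here of their levels. Between FP001 and normal medium on low-attachment plates, 0 of their genes passed in limma without the replicate block, where 0.11% of all genes did. With the block 6 passed (3 hepatocyte, 1 enterocyte and 2 A549 markers, given with their lists), where 1.3% of all genes did. Attachment arrays were matched by number in the block as well, without support, and this enters the error behind all its p-values. The other calls are against the attachment arrays, which both comparisons share as control, and with 2 such arrays they were fragile. Of 48 calls for the genes named from the lists and neighbours, 18 were kept when attachment replicate 2 was left out and 22 when replicate 3 was, and 10 were kept whichever single array was left out. The 10 were the low-attachment calls of AMBP, FMO5, SOX9 and TAT and the FP001 calls against attachment of HILPDA, KRT19, KRT20, PNPLA2, PON1 and TAT. For the others, the highest adjusted p over the arrays left out is given beside the call.

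Of 13 esterases that act on drugs or related esters, 10 had a named probe set and 9 were tested. With low attachment 0 rose and 1 fell, and 2 fell with FP001 against attached cells (medians −0.11 and −0.08, against 0.01 and 0.02 over all genes). Limma called 10.1% and 19.5% of all genes in these comparisons. PON1, which hydrolyses lactones, fell by 1.18 ± 0.20 with low attachment (adjusted p = 0.00597; 0.0749 without attachment replicate 2) and by 1.57 ± 0.20 with FP001 against attached cells (adjusted p = 0.000883). Its relative PON2 fell by 0.32 ± 0.08 with FP001 against attached cells (adjusted p = 0.0229; up to 0.17). Between FP001 and normal medium the median of the 9 was −0.20, where AADAC had −0.47. CES1, a carboxylesterase of liver chosen after its values were seen, was 39.7 and 155.3 on attachment replicates 2 and 3, and on replicates 1 to 3 it was 189.4, 1092.8 and 972.7 without FP001 and 146.1, 870.3 and 965.1 with it. Its differences against attached cells were the widest of the list and missed the threshold (2.90 ± 0.92 with low attachment, adjusted p = 0.0715; 2.66 ± 0.92 with FP001, adjusted p = 0.0653). They passed in limma with the replicate block (3.75 and 3.51, adjusted p = 5.5e-05 and 5.4e-05). That block also matches attachment arrays by number, although attachment arrays were not taken as paired, so these p-values rest on an unsupported matching. They also passed without low-attachment replicate 1 (3.71 and 2.66, adjusted p = 0.022 and 0.0284) and without FP001 replicate 1 (2.90 and 3.55, adjusted p = 0.0278 and 0.0177). Under those settings 1 esterase thus rose. Replicate 1 was the low one with and without FP001, and the difference between FP001 and normal medium was −0.24 ± 0.82 (adjusted p = 0.937). AADAC, with SDs of at most 0.15, showed no such spread between numbers.

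Of 41 drug-metabolising enzymes of the endoplasmic reticulum, where the AADAC protein resides, only 8 had a named probe set and 7 were tested. With low attachment 1 rose, and 2 rose with FP001 against attached cells (medians 0.11 and 0.27, with 10.1% and 19.5% of all genes called). FMO5, a flavin monooxygenase, rose by 1.04 ± 0.15 with low attachment (adjusted p = 0.00302) and by 0.49 ± 0.15 with FP001 against attached cells (adjusted p = 0.0491; up to 0.287). Its means of 38.5, 78.9 and 53.9 had the low-attachment group highest, as AADACP1 did and AADAC did not. MGST2, a glutathione transferase, rose by 0.30 ± 0.09 with FP001 against attached cells (adjusted p = 0.0439; up to 0.229).

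Of 39 genes of triglyceride storage and release, the turnover in which AADAC takes part, 31 had a named probe set and 26 were tested. With low attachment 3 rose and 2 fell, and with FP001 against attached cells 2 rose and 4 fell (medians 0.06 and 0.06, with 10.1% and 19.5% of all genes called). HSD17B13, a lipid droplet protein, rose by 1.18 ± 0.31 with low attachment (adjusted p = 0.0347; up to 0.244). PNPLA2, the main triglyceride lipase, rose by 0.51 ± 0.09 with FP001 against attached cells (adjusted p = 0.00481), and MGLL, which cleaves monoglycerides, by 0.42 ± 0.11 with low attachment (adjusted p = 0.0309; up to 0.156). HILPDA, an inhibitor of that lipase, fell by 1.40 ± 0.22 with FP001 against attached cells (adjusted p = 0.00254), and PLIN2, which coats lipid droplets, by 0.56 ± 0.12 with low attachment (adjusted p = 0.0184; up to 0.165).

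Of 28 transcription factors of liver and gut, the tissues in which AADAC is abundant, only 13 had a named probe set and 12 were tested. With low attachment and with FP001 against attached cells alike, 3 rose and 2 fell (medians 0.23 and 0.27, with 10.1% and 19.5% of all genes called). SOX9 rose by 0.63 ± 0.09 with low attachment (adjusted p = 0.00291), FOXA1 by 0.66 ± 0.13 (adjusted p = 0.0111; up to 0.0877) and the fatty acid receptor PPARA by 0.71 ± 0.16 (adjusted p = 0.0226; up to 0.157). FOXA2 fell by 0.41 ± 0.09 (adjusted p = 0.0175; up to 0.133) and PPARG by 0.43 ± 0.11 (adjusted p = 0.037; up to 0.266). For GATA6 and GATA4, whose family's motif stands upstream of AADAC, the differences between FP001 and normal medium were 0.14 ± 0.13 and 0.13 ± 0.13 (adjusted p = 0.73 and 0.719).

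Markers of hepatocytes were read beside AADAC, a gene of those cells. Of 21, 16 had a named probe set and 14 were tested. With low attachment 4 rose, and 4 rose and 2 fell with FP001 against attached cells (medians 0.10 and −0.01, with 10.1% and 19.5% of all genes called). The tyrosine-degrading enzyme TAT rose by 1.61 ± 0.25 with low attachment (adjusted p = 0.00354), AMBP by 0.76 ± 0.10 (adjusted p = 0.00164), APOH by 1.30 ± 0.24 (adjusted p = 0.00815; up to 0.0806) and TTR by 0.60 ± 0.13 (adjusted p = 0.0184; up to 0.144). The fibrinogen chains FGA and FGG fell by 0.77 ± 0.15 and 1.03 ± 0.22 with FP001 against attached cells (adjusted p = 0.00753 and 0.0109; up to 0.0765 and 0.102).

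Between FP001 and normal medium 3 hepatocyte markers fell in limma with the replicate block and 0 without it. They were the iron carrier TF, named after its values were seen (−1.34 ± 0.13, adjusted p = 0.0015; 0.139 without the block), FGA (−0.74 ± 0.13, adjusted p = 0.0191; 0.0928) and FGG (−0.94 ± 0.19, adjusted p = 0.0399; 0.145). AADAC and AADACP1 were lower on the same arrays. The summed intensity of the 16 named markers was 4280 and 6841 on attachment arrays, 6200 to 7967 on low-attachment arrays and 4188 to 5843 with FP001. Most of that sum was APOH (means of 1032, 2538 and 1971), FGA (1838, 1799 and 1079), FGB (1336, 1364 and 880) and FGG (639, 601 and 313). The part of this shift in the levels of AADAC was not tested. ALB, a defining marker, had means of 15.7, 25.6 and 20.2 and was not tested.

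Among 6 tested enterocyte markers KRT20 rose by 3.13 ± 0.47 with FP001 against attached cells (adjusted p = 0.00186) and, with the block, by 1.10 against normal medium (adjusted p = 0.00647), the opposite direction to the AADAC difference. VIL1 rose by 0.59 ± 0.14 with low attachment (adjusted p = 0.0215; up to 0.142), and ANPEP fell by 0.63 ± 0.15 with FP001 against attached cells (adjusted p = 0.0145; up to 0.137). Of the 5 A549 markers named, KRT19 rose by 1.55 ± 0.22 with FP001 against attached cells (adjusted p = 0.00135), KRT18 by 0.30 ± 0.06 (adjusted p = 0.00917; up to 0.0882), and EPCAM fell by 0.53 ± 0.16 (adjusted p = 0.042; up to 0.253). With the block KRT19 and KRT18 also rose against normal medium (0.52 and 0.25, adjusted p = 0.014 and 0.0465). The summed A549 markers were 4403 and 4562 on attachment arrays, 4684 to 5014 on low-attachment arrays and 5427 to 5965 with FP001. Most of that sum was KRT18 (means of 3590, 3724 and 4422). EPCAM (233.5, 220.0 and 162.0) and KRT8 (146.7, 144.8 and 140.3) had their lowest means with FP001, as AADAC did. KRT8, named after its values were seen, differed by only −0.05 ± 0.12 between FP001 and normal medium (limma adjusted p = 0.911). KRT18, KRT19 and TXNRD1 (323.8, 357.9 and 381.8) had their highest means with FP001. The 2 fibroblast markers tested went different ways with FP001 against attached cells: THY1 fell by 0.51 ± 0.11 (adjusted p = 0.0115; up to 0.075), and LUM, named after its values were seen, differed by 1.57 ± 0.94 (adjusted p = 0.256; 1.29 ± 0.84 against normal medium, adjusted p = 0.595). Markers named for other cell types gave 1 rise of 4 for leukocytes (CD68, 0.74 ± 0.17, adjusted p = 0.0146, up to 0.0923). For endothelium it was 0 of 1 (CLDN5, 0.44 ± 0.18, adjusted p = 0.106). Between FP001 and attached cells limma called 19.5% of all genes. CD68 had means of 303.1, 415.1 and 506.9 on attachment, low-attachment and FP001 arrays, far above the array medians in each group. The presence of other cells was not tested.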

How the data were processed

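The deposited values are linear MAS5 intensities, MAS5 being the method per the submitters' processing notes. No version or setting was given in the sources used here. Total RNA (100 ng) was turned into biotinylated cRNA for the arrays, per the labels' protocols. The deposited intensities were taken as log2 here with no further scaling. Names came from the platform annotation, brought up to date through gene identifiers in RefSeq (GRCh38.p14; 16098 of 16098 matched; 37519 probe sets have no name here). A probe set was kept where it reached the array median on at least 3 of 8 arrays, and the brightest stood for its gene (10916 genes). Group means were fitted with limma 3.58.1 in R 4.3.3 (lmFit, eBayes with trend, two-sided, Benjamini-Hochberg over all genes), checked on simulated data. The members and lists were chosen with earlier results of these data known. Genes named are the relatives and any called neighbour. Of the 4 nearest neighbours with a named probe set on each side, those tested are named. From the lists up to 4 called genes per list and comparison are named (the brightest where a list had none). The 8 genes most and 4 least like AADAC and the 3 pseudogene pairs of highest r are named too. In the text some genes are given for 1 of their comparisons. CES1, TF, LUM, KRT8, TXNRD1, GATA4 and GATA6 were added after their values were seen. Chromosomal order and the upstream windows came from RefSeq; no coordinates of probe sets were used.

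Same-numbered low-attachment arrays without and with FP001 deviated together from their group means over all tested genes (correlations 0.483, 0.309 and 0.231 for numbers 1, 2 and 3, each above 0.1). Among arrays of unlike number, low-attachment replicate 2 with FP001 replicate 3 also passed 0.1 (0.133), and replicate 3 with 2 had 0.090. The unlike pairs that held a replicate 1 lay between −0.353 and −0.263, so the matching of numbers 2 and 3 is less certain. Same-numbered arrays were taken as paired on this evidence from the data, as the labels give only the numbers. Attachment arrays were not (−0.205 and 0.138 with low-attachment replicates 2 and 3). Alternatives were all 9 arrays, quantile or median scaling, a pseudocount of 16, other filters, no trend, averaged probe sets, the replicate block and leaving out each array.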

Additional observations from a re-analysis of the deposited data

How the results depend on the processing

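With all 9 arrays, attachment replicate 1 included, the low-attachment minus attachment difference became 0.98 for AADAC and 0.16 for AADACP1, and the FP001 minus attachment difference 0.51 and −0.49; their log2 ratio changed by 0.82 and 1.01. In that fit limma called 0 genes in each comparison, with 190, 317 and 10 at an unadjusted p under 0.05, and kept 0 of 48 calls of named genes. Of these, 15 turned sign: with low attachment FOXA1 (−0.92), HILPDA (1.04), PLIN2 (0.40), PNPLA2 (−0.014), PPARA (−0.80) and THY1 (0.80), and with FP001 FGA (2.07), FGG (1.75), FOXA1 (−1.02), HILPDA (0.65), PLIN2 (0.50), PON2 (2.78), PPARA (−0.89), THY1 (0.74) and VIL1 (−0.10). That array followed no other; the cause was not tested.

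Leaving out each of the 8 arrays gave AADAC differences of −0.27 to −0.06 (low attachment minus attachment), −0.73 to −0.53 (FP001 minus attachment) and −0.54 to −0.39 (FP001 minus low attachment), and for AADACP1 0.35 to 0.48, −0.30 to −0.21 and −0.73 to −0.60. Their ratio changed by −0.68 to −0.46, −0.49 to −0.27 and 0.09 to 0.29. Calls ranged over 359 to 1301, 661 to 2303 and 0 to 11, against 1100, 2126 and 12 with all 8. Low-attachment calls were 359, 452 and 721 without attachment replicate 2, attachment replicate 3 or low-attachment replicate 3. FP001 calls against attachment were 661, 1115, 1276 and 1338 without attachment replicates 2 or 3 or FP001 replicates 1 or 2. Between FP001 and low attachment they were 1 without low-attachment replicate 2 or 3, and 0 without any of the FP001 arrays (1043, 951 and 1380 at an unadjusted p under 0.05).

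Quantile and median scaling, a pseudocount of 16 and the replicate block kept the members' differences within 1 SD and their direction. With the replicate block 142 genes were called between FP001 and low attachment, and 0 without the variance trend (1226 at an unadjusted p under 0.05). Quantile scaling moved the share of higher calls from 42.8% to 54.4% with low attachment, from 41.5% to 56.2% with FP001 against attachment and from 33.3% to 44.4% between FP001 and low attachment.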
